A study of Mus musculus with 5 samples.

Results

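Loss of H3K27me3 peaks in Kdm6b-cKO dermal fibroblasts was examined in the autosomal regions that carried a peak in both WT libraries and in neither Kdm6b-cKO library. Peaks of the 4 libraries on chromosomes 1 to 19 were merged wherever they shared at least 1 bp, which gave 47569 merged regions. The 200 regions described here (0.42%), with a summed length of 265.8 kb, were chosen by the presence or absence of peaks. The mirror pattern, a peak in both Kdm6b-cKO libraries and in neither WT library, held 7346 merged regions (15.4%). Because the regions were selected on these peak calls, their contrast between genotypes is described here without a test, and nothing is concluded from the counts themselves.

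The study compared H3K27me3 ChIP-seq of cultured dermal fibroblasts from WT and Kdm6b-cKO embryonic skin at the late stage E18.5, with n = 2 libraries per genotype (WT replicates 7 and 9, Kdm6b-cKO replicates 3 and 4). Kdm6b-cKO carried the floxed Kdm6b fl/fl allele deleted by Dermo1-Cre (Twist2-Cre), a driver active in dermal mesenchyme, on a C57BL/6 background. Cells of both genotypes were expanded in AmnioMAX medium before fixation. The labels of all 4 libraries, WT included, state a sort for GFP-positive cells as a sign of the conditional knock-out. That statement does not match the WT genotype, and the study's ChIP-seq methods describe no sort. How the WT cells were selected is therefore unclear. The sources used here do not say whether replicates came from separate embryos and give no embryo sex. For its single-cell RNA experiment the study describes WT as Kdm6b fl/fl littermates, which it does not repeat for the ChIP-seq. On the autosomes the WT lists were shorter, with 25671 (replicate 7) and 19210 (replicate 9) entries against 38508 (replicate 3) and 36626 (replicate 4) for Kdm6b-cKO. Neither the loss of Kdm6b nor the level of a marker can be read from peak calls. None of the 18 promoters of core fibroblast genes such as Pdgfra, Col1a1 and Twist2 carried a peak in any library. In WT replicate 7, 2 of 9 melanocyte, 4 of 10 immune and 6 of 14 keratinocyte marker promoters carried one. So did 6 of 12 endothelial and 5 of 9 muscle marker promoters. The share over all promoters is not given here, so these counts do not identify the cells.

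H3K27me3 is the trimethylated form of lysine 27 on histone H3, laid down by Polycomb repressive complex PRC2 and found over silent developmental genes, where it spreads in broad domains around CpG-rich promoters. Kdm6b (Jmjd3) is a demethylase that removes the mark. Reads from sequence that occurs many times in the genome cannot be placed on one copy with certainty, which bears on any peak called over repeats.

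The sequences of 4 regions are shown as examples of single-copy sequence at named genes and of sequence shared with mitochondrial DNA. Each is the central 300 bases of the region, read from the + strand of mm10 (GRCm38), with CpG in capitals and all other bases in lower case. The Zfhx3 sequence was added after the values were seen.
Region at Tbx3, chr5:119673620-119673919: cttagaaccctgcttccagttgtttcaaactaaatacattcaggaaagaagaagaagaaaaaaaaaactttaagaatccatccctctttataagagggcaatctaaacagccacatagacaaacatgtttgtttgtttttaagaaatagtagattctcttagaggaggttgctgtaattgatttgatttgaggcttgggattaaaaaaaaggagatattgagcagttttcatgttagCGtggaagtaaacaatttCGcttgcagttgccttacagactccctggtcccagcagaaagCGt
Region at Enpp4, chr17:44107816-44108115: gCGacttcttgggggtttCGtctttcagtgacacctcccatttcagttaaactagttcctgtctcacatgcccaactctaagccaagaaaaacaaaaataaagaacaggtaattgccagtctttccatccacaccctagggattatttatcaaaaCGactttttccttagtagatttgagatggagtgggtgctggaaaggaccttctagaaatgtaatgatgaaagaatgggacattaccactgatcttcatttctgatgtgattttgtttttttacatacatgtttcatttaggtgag
Region near Col19a1, chr1:24613687-24613986: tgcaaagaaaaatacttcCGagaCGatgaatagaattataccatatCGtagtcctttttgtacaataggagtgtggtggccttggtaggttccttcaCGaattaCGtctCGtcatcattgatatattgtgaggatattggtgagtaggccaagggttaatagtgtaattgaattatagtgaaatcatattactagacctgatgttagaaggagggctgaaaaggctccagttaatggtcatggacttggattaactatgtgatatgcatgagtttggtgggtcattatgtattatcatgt
Region in Zfhx3, chr8:108131456-108131755: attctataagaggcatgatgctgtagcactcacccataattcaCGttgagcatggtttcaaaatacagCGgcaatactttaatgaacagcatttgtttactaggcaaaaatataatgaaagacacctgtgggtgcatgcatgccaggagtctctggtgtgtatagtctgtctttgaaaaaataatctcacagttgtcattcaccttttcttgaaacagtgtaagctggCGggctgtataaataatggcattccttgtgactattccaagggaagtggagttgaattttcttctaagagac

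The windows at Tbx3, Enpp4 and Zfhx3 held 3 CpG each, and the window near Col19a1, which matched the mitochondrial genome, held 6.

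The 200 regions were far shorter than regions called in all 4 libraries, and their typical peak ranked below the middle of the WT lists. Their length had a median of 1159.5 bp (quartiles 795 and 1666 bp, range 273 to 4336 bp), against 1931 bp for regions called in both Kdm6b-cKO alone and 7199.5 bp for regions called in all 4 libraries. The median was 1283 bp over all merged regions, 532.5 bp for WT replicate 7 alone and 448 bp for WT replicate 9 alone. Fold enrichment over the peak caller's background, as a length-weighted mean over the peaks of each region, had a median of 2.86 in WT replicate 7 (range 1.92 to 4.23) and 2.94 in WT replicate 9 (range 2.35 to 3.95). The median of all autosomal peaks was 2.94 in WT replicate 7 and 3.07 in WT replicate 9, so the typical peak here ranked at the 37.3 and 27.5 percentile of its own list. By contrast, WT peaks inside regions of all 4 libraries ranked at a median of 63.6 and 54.2. In regions of both WT and 1 Kdm6b-cKO library the WT peaks ranked between, at 43.4 and 35.3. The −log10 q value had a median of 2.89 in WT replicate 7 and 2.69 in WT replicate 9, and in 88 of 200 regions it was under 3 in both. Only 1 region reached 5 in both, the one near Inhba.

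**Figure D1:**
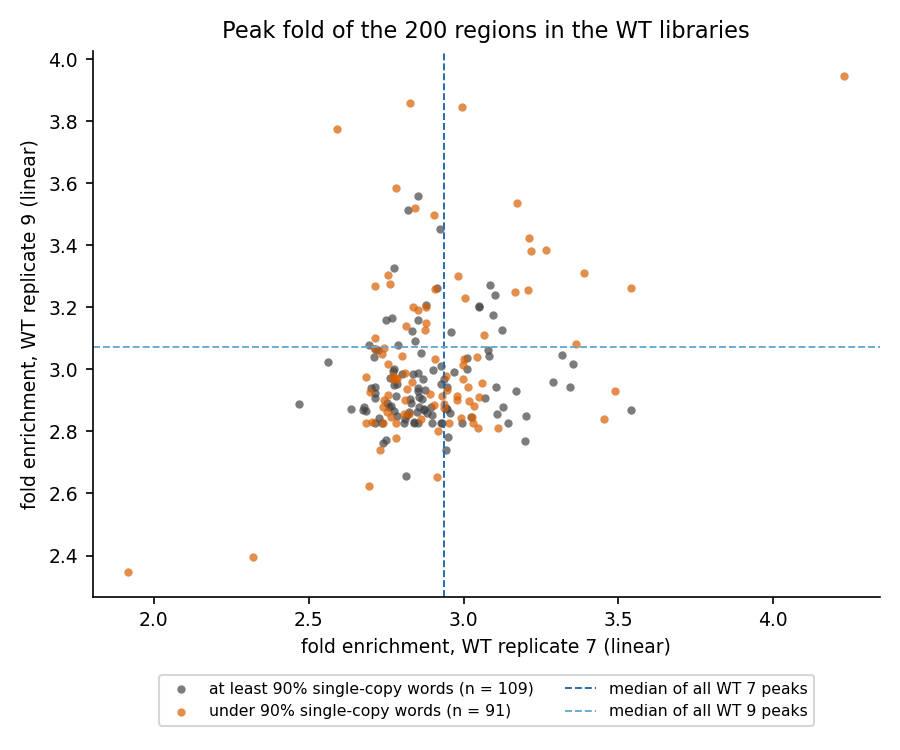
Fold enrichment of the 200 regions in WT replicate 7 (x axis) and WT replicate 9 (y axis), both linear, 1 point per region, coloured by the share of 31-base words found once in the reference. Dashed lines are the medians of all autosomal peaks of each library (2.94 and 3.07). Most points lie near or below those medians, and a single point, the region near Inhba, stands at 4.23 and 3.95.

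The WT libraries called different stretches of these regions. Peaks of WT replicate 7 covered 209.2 kb of the regions and peaks of WT replicate 9 covered 152.3 kb, while 95.7 kb lay under peaks of both. All 200 regions had some bases under both, from 9 bp upward, and in 154 of them the shared stretch was at least 200 bp. Shared bases made up a median of 36.8% of a region. Across the 200 regions, the folds of the WT libraries had a Pearson r of 0.32 and a Spearman rho of 0.16, a description over regions that share 2 libraries. Within the 109 regions of mostly single-copy sequence r was 0.07.

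The regions were poor in GC and CpG. Median GC content was 39.5% (quartiles 37.7% and 42.5%), below the 41.9% of the autosomes, whereas regions of both Kdm6b-cKO alone had 49.0% and regions of all 4 libraries 46.4%. CpG density had a median of 5.79 per kb, against 11.3 per kb in both of those sets and 8.51 per kb over the autosomes. Among the 15 presence patterns that 4 libraries can form, this one ranked lowest in median GC and in median CpG density. Patterns seen in 1 WT library alone came near it, with 42.5% GC for WT replicate 7 and 42.1% for WT replicate 9. Patterns of 1 Kdm6b-cKO library alone had 46.7% and 49.3%. A region called in both WT and in 1 Kdm6b-cKO library (460 regions) had a median of 41.9% GC and 6.58 CpG per kb. These patterns share the same 4 libraries and their lengths differ, so the order is a description.

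**Figure D2:**
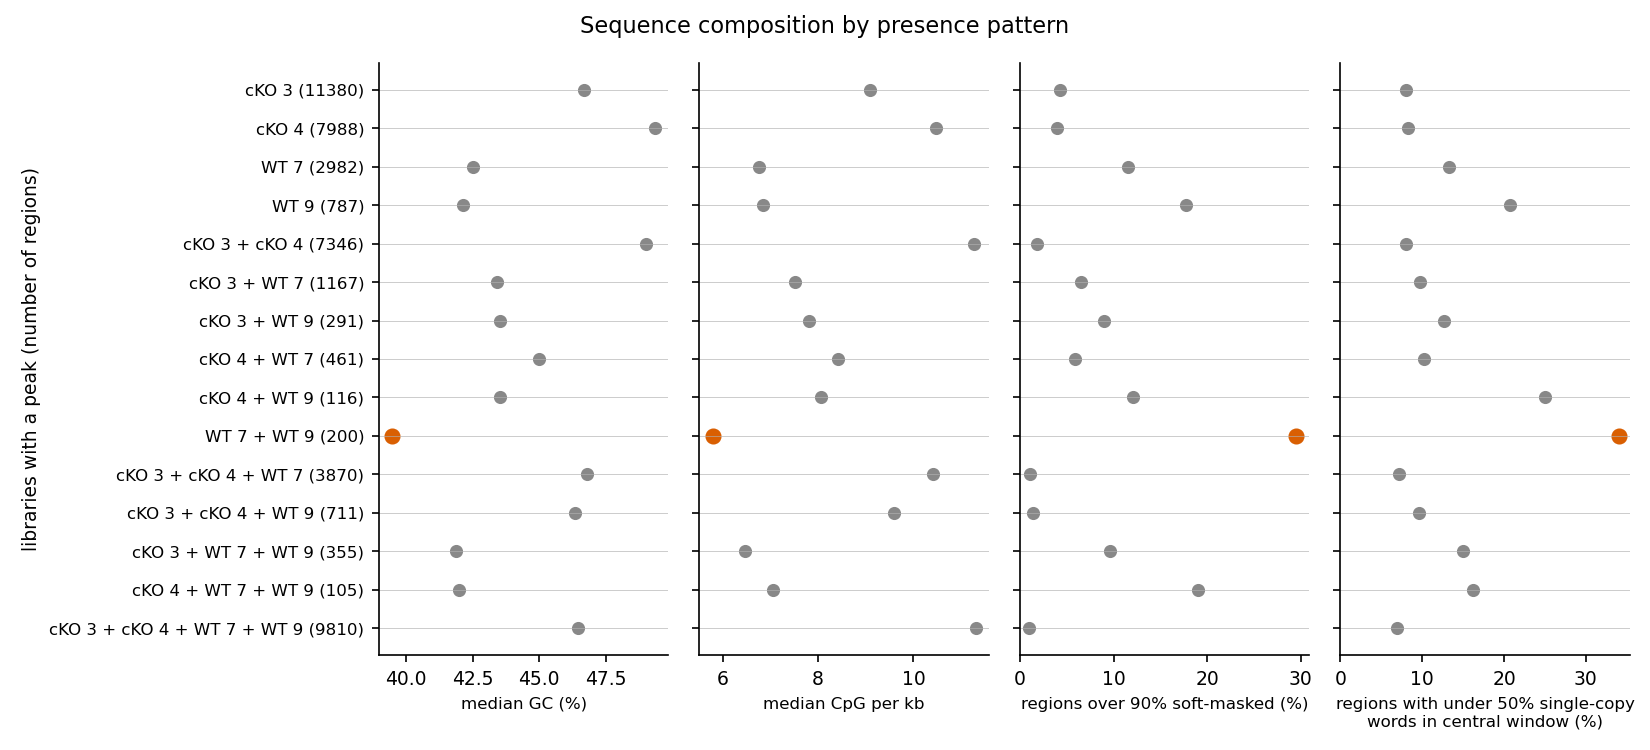
Median GC content, median CpG density, share of regions over 90% soft-masked and share of regions with under 50% single-copy words in the central 300 bp, for each of the 15 presence patterns (rows, with the number of regions). Grey points are the other patterns and the orange point is the pattern of both WT and neither Kdm6b-cKO, at 39.5%, 5.79 per kb, 29.5% and 34%, an extreme of all 4 panels.

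Repeated sequence made up a large share of the set. In 59 of 200 regions (29.5%) over 90% of the bases were soft-masked, the lower-case letters by which the reference marks repeats, against 1.77% of regions of both Kdm6b-cKO alone, 0.968% of regions of all 4 libraries and 3.83% of all merged regions. Copy number was then read from the sequence itself: each stretch of 31 consecutive bases, a 31-base word, was looked up on both strands of the whole reference. In the central 300 bp, 68 regions (34%) had under 50% of words found once, against 7.96% for both Kdm6b-cKO alone, 6.88% for all 4 libraries and 8.62% of all merged regions. The share was 13.3% in regions of WT replicate 7 alone and 20.7% in regions of WT replicate 9 alone. With both WT and 1 Kdm6b-cKO library it was 15.2%. The highest of the other presence patterns was 25%, in regions of WT replicate 9 and Kdm6b-cKO replicate 4. Over the whole region, 109 of 200 had at least 90% single-copy words, 91 had fewer and 36 had under 10%. The median word in the 91 occurred 32 times in the reference.

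**Figure D3:**
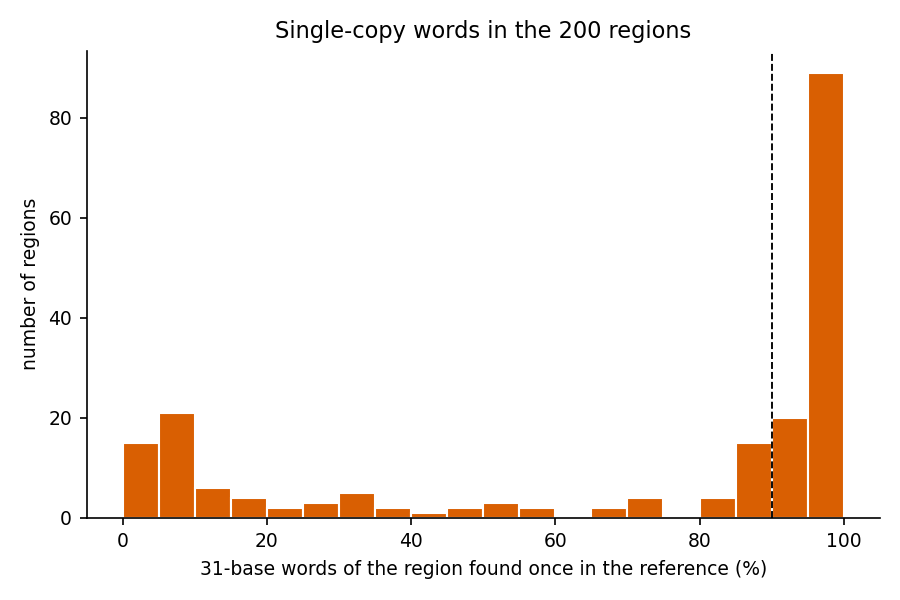
Number of regions (y axis) by the percentage of the region's 31-base words that occur once in the reference (x axis, bins of 5 points). The dashed line is the 90% limit, with 109 regions at or above it. The remaining 91 include a second heap under 10%, where 36 regions lie.

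Shared words linked many of the regions into a single large group, here called a family. Linking regions that shared at least 5% of the words of the shorter one joined 47 regions on 14 chromosomes, with a summed length of 46.3 kb. All bases of the typical member of this family were soft-masked (median 100%), 45 of the 47 were intergenic, and the median word occurred 1131 times in the reference. Links were chained, so regions of the family need not share words directly, and a common origin was not tested. The median word of a region occurred from 3 to 11069 times in the reference. A further 3 regions formed a second family. No repeat annotation was used, so the kind of repeat is not named.

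Strong peaks of the set were mostly in regions of the large family. By the lower of its WT folds, the highest region lay 592 kb from the start site of Inhba, an activin subunit gene. It had a fold of 4.23 in WT replicate 7 and 3.95 in WT replicate 9, no single-copy word and a median of 8121 copies per word. The nearest Kdm6b-cKO peak was 1210 kb away in both libraries (1210.2 and 1210.3 kb), and the 25 kb on either side of its centre held no other peak in any library. The next, near Cntnap5a, a neuronal adhesion gene, had folds of 3.39 and 3.31, a median of 11069 copies per word and the nearest Kdm6b-cKO peak 1562 kb away. Of the 10 regions with the highest lower fold, 8 belonged to the family, 1 near the proto-oncogene Mycn was repetitive without sharing its words, and 1 was single-copy, at Tbx3.

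The longest region matched mitochondrial DNA. At chr1:24611669-24616004, 24.2 kb from the start site of the collagen gene Col19a1, it spanned 4336 bp, and 98.7% of its words also occurred in the mitochondrial genome. It had the lowest folds of the set, 1.92 in WT replicate 7 and 2.35 in WT replicate 9, with −log10 q values of 2.90 and 5.86. On the mitochondrial genome itself, WT replicate 7 had 4 peaks over 11900 bp and WT replicate 9 had 1 peak over 16115 bp, whereas both Kdm6b-cKO libraries had 0. Whether mitochondrial reads contributed to this region was not tested. The other 9 of the 10 longest regions spanned 3163 to 4121 bp, with folds of 2.78 to 3.13 in WT replicate 7 and 2.83 to 3.20 in WT replicate 9. They lay near Tmem30a, a lipid flippase subunit, in Chl1, a neural adhesion gene, near Gm5269, near Zbp1, a sensor of nucleic acids, at Tbx3, in Wdr93, near Cog6, near Ndufb7 and in Zfhx3. At Chl1 the peak of WT replicate 7 filled all 3768 bp, whereas WT replicate 9 covered 1248 bp.

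Most regions lay outside genes. By midpoint, 147 of 200 (73.5%) were intergenic, 42 (21%) intronic, 3 exonic and 8 (4.0%) within 3 kb of the start site of a protein-coding gene, where the autosomes as a whole divide into 57.7%, 34.6%, 3.04% and 4.65%. For regions of both Kdm6b-cKO alone the intergenic share was 54.8% and for regions of all 4 libraries 52.3%. Other sets with WT peaks came near the 200 regions. The share was 66.6% for WT replicate 7 alone, 70.3% for WT replicate 9 alone and 67.8% for both WT and 1 Kdm6b-cKO library. Single-copy regions were intergenic in 71 of 109 cases (65.1%) and the more repetitive ones in 76 of 91 (83.5%). Counting any overlap with the 3 kb on either side of a start site, 12 regions (6.0%) touched a promoter, against 11.5% of regions of both Kdm6b-cKO alone, 36.2% of regions of all 4 libraries and 13.9% of all merged regions. For WT replicate 7 alone and WT replicate 9 alone it was 5.37% and 5.34%, and for both WT and 1 Kdm6b-cKO library 9.57%. The 200 regions were spread over all 19 autosomes, from 3 on chromosome 15 to 19 on chromosome 12.

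The regions lay close to other H3K27me3 peaks of both genotypes. A peak of at least 1 Kdm6b-cKO library came within 1 kb of 73 regions, within 5 kb of 141 and within 10 kb of 159, with a median gap of 1.56 kb. The nearest region called in all 4 libraries was a median of 15.1 kb away, and 82 regions had one within 10 kb. Outside the region itself, peaks covered 16.5% of the bases within 25 kb of the centre in Kdm6b-cKO replicate 3, 12.2% in Kdm6b-cKO replicate 4, 12.4% in WT replicate 7 and 7.20% in WT replicate 9. Over all autosomes the same libraries covered 5.41%, 4.68%, 3.32% and 2.24%. Every library had a higher share around the regions than over the autosomes, and the flanking values of the Kdm6b-cKO and WT libraries overlapped. Gaps and flanks were not measured for regions of other presence patterns, so this closeness is not shown to be particular to the set. In Kdm6b-cKO replicate 3, 47 regions had a peak within 5 kb on both sides, in Kdm6b-cKO replicate 4, 32 had, in WT replicate 7, 28 had and in WT replicate 9, 11 had, in the order of the list lengths.

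**Figure D4:**
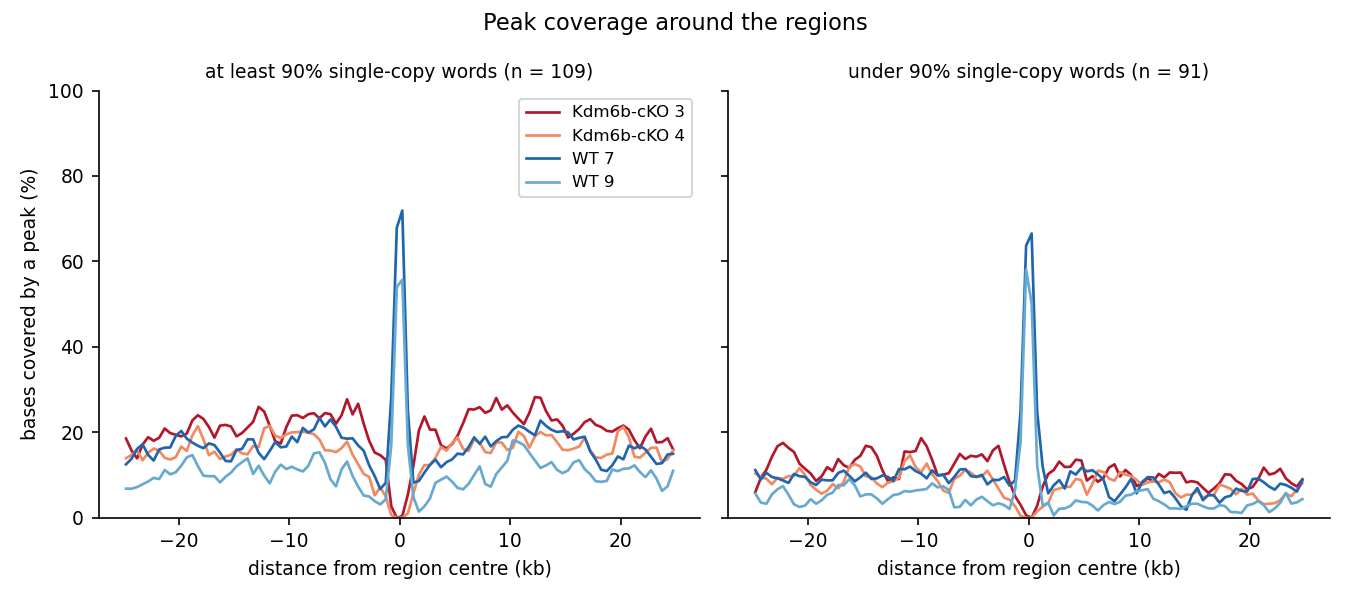
Percentage of bases covered by a peak (y axis) in bins of 500 bp by distance from the region centre (x axis, kb), for the 4 libraries, in the 109 regions with at least 90% single-copy words (left) and the 91 others (right). WT coverage peaks at the centre and Kdm6b-cKO coverage falls to near 0 there by the rule. Flanking coverage of every library is higher on the left, where Kdm6b-cKO replicate 3 covers 21.1% of the flanks, than on the right, where it covers 11.1%.

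Regions with at least 90% single-copy words (single-copy) and the others (repetitive) had different surroundings in these libraries. Among the 109 single-copy regions, 88 had a Kdm6b-cKO peak within 5 kb, and the nearest region of all 4 libraries lay a median of 11.1 kb away. Of the 91 repetitive regions 53 had a Kdm6b-cKO peak within 5 kb, and the nearest region of all 4 libraries lay at 55.6 kb. In 20 regions no library had any other peak within 25 kb of the centre, and 16 of those 20 were repetitive.

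The rule has a sharp edge, since a gap of 0 bp admits a region and an overlap of 1 bp removes it. Just inside, the region at Rln1 abutted a peak of Kdm6b-cKO replicate 3 with a gap of 0 bp, and the regions at Krtap12-1, near Dmrta2, in Skap1 and near Sp8 had gaps of 3, 13, 22 and 24 bp. Just outside, 5 regions with peaks in both WT libraries overlapped a Kdm6b-cKO peak by 8, 14, 28, 32 and 37 bp, with Ado, Col28a1, Neb, Lrmda and Tmem136 as their nearest genes. In the 460 regions with peaks in both WT and in 1 Kdm6b-cKO library the overlap had a median of 787.5 bp.

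Few developmental promoters were among them. At Tbx3, a T-box factor of limb and mammary development, the region chr5:119672028-119675512 lay 1.36 kb from the start site and had a fold of 3.13 in WT replicate 7 and 3.13 in WT replicate 9. All of its words were single-copy and it had the highest CpG density of the set, 28.1 per kb. The nearest peak of Kdm6b-cKO replicate 3 ended 2.98 kb to the left. That of Kdm6b-cKO replicate 4 began 3.23 kb to the right and was 0.267 kb long, with a fold of 2.58. Peaks covered 34.3 kb of the surrounding 25 kb on each side in Kdm6b-cKO replicate 3, 31.5 kb in Kdm6b-cKO replicate 4, 34.5 kb in WT replicate 7 and 30.6 kb in WT replicate 9. Peaks over the rest of the locus were thus of like extent in the 4 libraries, and the Kdm6b-cKO libraries had no call over this stretch. Of its 3485 bp, WT replicate 7 covered 3352 bp and WT replicate 9 only 1338 bp. To the right, the next peak of WT replicate 9 began 5.96 kb from the region centre. Most of the stretch was therefore without a call in WT replicate 9 as well.

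Other promoter regions were near genes of varied function. Enpp4, a cell-surface nucleotide phosphodiesterase, had a region at chr17:44107368-44108563 with folds of 3.08 and 3.27 in WT replicates 7 and 9, and a peak of Kdm6b-cKO replicate 4 lay 0.482 kb away. Krtap12-1, a keratin-associated protein of the hair shaft, had one with folds of 3.14 and 2.83, placed in the body of Tspear. Rln1, the hormone relaxin, had one with folds of 2.81 and 2.83, and a second region lay within 25 kb of the same gene and of Insl6. Zmpste24, the protease that matures lamin A, and Igf2bp3, an RNA-binding protein of embryonic cells, had regions with lower folds of 2.74 in each. Promoters of Golph3l, Smim23, Syn3, Zfp930, Sybu and Rnf145 completed the 12, with folds from 2.56 in WT replicate 7 at Rnf145 to 3.58 in WT replicate 9 at Zfp930. The Sybu region belonged to the large repeat family, and those of Golph3l, Zfp930 and Zmpste24 were repetitive as well.

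A single gene held 3 regions, in counts that were not adjusted for gene length. Zfhx3, which encodes a large zinc finger homeobox factor, had intronic regions 188, 347 and 467 kb from its start site. The first, chr8:108130311-108132901, had folds of 2.93 and 3.01 in WT replicates 7 and 9. In the second, chr8:108289586-108291429, they were 2.77 and 3.17, and in the third, chr8:108409806-108412968, 3.03 and 2.85. The first and second were single-copy and the third was repetitive. Peaks of Kdm6b-cKO replicate 3 came within 1.16, 2.59 and 0.505 kb of the 3 regions, and peaks of Kdm6b-cKO replicate 4 within 8.55, 36.2 and 1.72 kb. Around the third region, peaks covered 16.3 and 13.6 kb of the flanks in Kdm6b-cKO replicates 3 and 4, and 19.3 and 8.66 kb in WT replicates 7 and 9, so the genotypes overlapped. Intronic pairs, named after the values were seen, were found in Sox6, a SoxD transcription factor, and in Rora, an orphan nuclear receptor, with folds between 2.68 and 3.09.

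**Figure D5:**
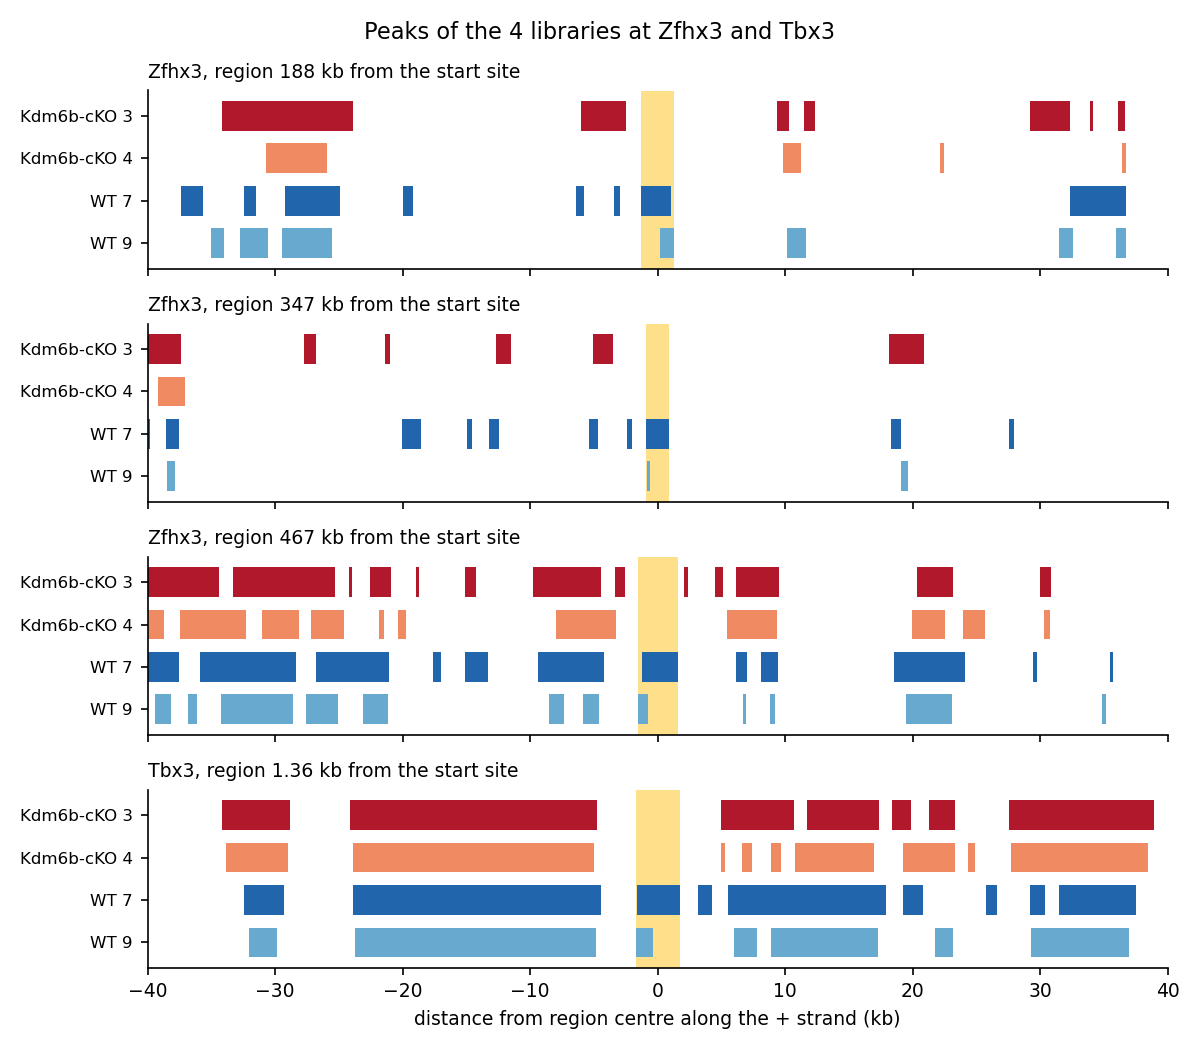
Peaks of the 4 libraries (bars, 1 row per library) within 40 kb of the centre of the 3 Zfhx3 regions and the Tbx3 region (x axis, distance from the region centre in kb). The shaded band is the region. Peaks of Kdm6b-cKO replicate 3 lie on both sides of every band, and at Tbx3 all 4 libraries share the long peak on the left and a run of peaks on the right.

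Genes near the regions did not gather in one list. Of 20807 autosomal protein-coding genes, 138 (0.663%) had a region in the body or within 25 kb of the start site. Among 18 core fibroblast genes, 1 was near a region, the collagen VI gene Col6a1, with folds of 2.75 and 2.86. Of 26 dermal papilla genes 1 was, the secreted Wnt inhibitor Wif1, with an intronic region of 339 bp and folds of 2.94 and 2.97. In the adipocyte lineage it was 1 of 29, the lipid droplet coat gene Plin1, whose region lay in the neighbouring Wdr93 and had folds of 2.94 and 2.89. The regions of Col6a1 and Plin1 were repetitive and that of Wif1 was single-copy.

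In larger families, zinc finger genes with a Zfp symbol had 3 of 385 near a region (0.779%), namely Zfp414, Zfp652 and Zfp930. Olfactory receptors had 2 of 1128 (0.177%), Olfr370 and Olfr49, and potassium channel genes 1 of 92 (1.09%), the small-conductance channel Kcnn2. Of the regions near these genes only that of Olfr49 was single-copy, and that of Zfp414 belonged to the large repeat family. Several lists had 0 genes near a region: 38 neuronal transcription factors, 39 Hox genes, 327 vomeronasal receptors, 57 neuronal adhesion and long genes, 34 glutamate and GABA receptors and 33 cadherins and protocadherins. The lists do not hold every gene of a kind, and Chl1 and the cortical neuron factor Tbr1, neither of them listed, each had 1 region in the body or within 25 kb. None lay near the 12 autosomal genes of H3K27 methylation and demethylation, Kdm6b included. The count was also 0 for the marker lists of keratinocytes (14), melanocytes (9), endothelium (12), immune cells (10) and muscle (9), other cell types that dermal cultures can hold. At the share over all genes (0.663%), 0 is the usual count for a list of 57 genes or fewer. Zeros of lists that size are therefore not read as a result about their genes. Some epidermal genes outside the keratinocyte list were near regions. Sprr2a1 and Sprr2a2, which encode cornified envelope proteins, shared 1 region with folds of 2.32 and 2.40 in WT replicates 7 and 9. Hrnr (hornerin) and Dsg1a (a desmoglein) had 1 each. The region of Sprr2a1 and Sprr2a2 had no single-copy word, and that of Hrnr was repetitive. The 4 epidermal genes and Tbr1 were named after the values were seen. Neuronal and Hox promoters were marked in most cases all the same, 36 and 32 of them in WT replicate 7 and 36 and 32 in Kdm6b-cKO replicate 3, and 0 of them under a region of this set. The share of all promoters that carried a peak is not given here.

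Short repeated motifs were searched on both strands. In the central 300 bp, 4 CA or TG dinucleotides in a row (CACACACA or its complement TGTGTGTG) were found in 10 of 200 windows (5.0%), against 9.58% of all merged regions and 4.13% of regions of both WT and 1 Kdm6b-cKO. Runs of 4 GA or TC (GAGAGAGA or TCTCTCTC) were found in 3 windows (1.5%), against 6.92%, and 12 A or 12 T in a row in 6 windows (3.0%), against 2.55%. A match is a description of the letters and not a binding site.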

How the data were processed

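H3K27me3 ChIP-seq of cultured dermal fibroblasts from WT and Kdm6b-cKO skin was analysed from the peak lists of the 4 libraries. Per the study's methods and the submitters' processing notes, the authors aligned paired-end reads to mm10 with Bowtie2 2.3.5.1, sorted them with SAMtools 1.9, subsampled the libraries to an equal number of reads and called broad peaks in each library with MACS2 2.2.7.1 at a broad q-value limit of 0.01. Filters on mapping quality or duplicates and an input library for the calls are not stated there. The deposited columns were a display score, the fold enrichment over the caller's background and the −log10 p and −log10 q values, each of which the authors obtained as a mean over the peak. The score and the −log10 p were not used in any result. The lists hold no read counts, so the depth behind a peak is unknown and no counting interval is given.

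Peaks on chromosomes 1 to 19 were merged at 1 bp of overlap. Fold and −log10 q were averaged over a library's peaks in a region, weighted by length. GC, CpG and soft-masking were read from GRCm38 and 31-base words were counted over the whole reference, both strands. Protein-coding genes were those of GENCODE M21, promoters were start sites ± 3 kb, and each region was placed by its midpoint as promoter, exon, intron or intergenic, in that order. Steps ran in Python 3.11.15 with numpy 2.4.6, pandas 2.3.3, numba 0.67.0, scipy 1.17.1 and matplotlib 3.10.9, and merging was checked on planted intervals.

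The members and the gene lists were chosen with earlier results of these data known. Named were the 10 longest regions, the 10 with the highest lower WT fold, every region at a promoter, genes with 3 or more regions, list genes near a region, and regions with at least 50% mitochondrial words. No test was run, since the peak calls that define the regions are the contrast itself. With n = 2 libraries per group, the spread between them may be technical. The sequences of the large repeat family are not reported here.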

Additional observations from a re-analysis of the deposited data

Results flagged for a closer look

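Peak calls outside the autosomes were looked at as well. The mitochondrial genome was covered by peaks over 11900 bp in WT replicate 7 and 16115 bp in WT replicate 9. Their highest folds, 1.83 and 2.17, were below the medians of those lists, 2.94 and 3.07. Both Kdm6b-cKO libraries had 0 peaks there. Whether these calls reflect the mark was not tested. On the X chromosome, which the rule leaves out, 132 of 6768 merged regions (1.95%) were called in both WT and in neither Kdm6b-cKO library, with a median length of 1173 bp, and 535 (7.90%) showed the mirror pattern. Embryo sex is not given, and its part in the X chromosome values was not tested. Groups of 2 libraries allow no check for an outlying sample.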

How the results depend on the processing

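The number of regions followed the lists and the edge of the rule. Cutting every list to its 19210 strongest peaks gave 700 regions (130 of the 200 among them) over 1463 kb, with a median GC of 41.5% and 68 at promoters. With a −log10 q of at least 3 in every list, 160 regions (31 of the 200 among them) spanned 365.3 kb at 41.4% GC. Merging peaks within 1 kb gave 221.0 kb, and a requirement of at least 200 bp covered in both WT libraries gave 213.8 kb. With no Kdm6b-cKO peak within 10 kb, 41 regions spanned 42.0 kb at 39.3% GC, with 1 at a promoter. The X chromosome raised the set to 332 regions, 452.1 kb and 39.2% GC, with 62.0% intergenic. At least 90% single-copy words left 109 regions over 149.3 kb, at 40.8% GC and 65.1% intergenic. Without 1 of the 4 libraries in turn, the set held 338 (without Kdm6b-cKO replicate 4), 710 (without Kdm6b-cKO replicate 3), 1177 (without WT replicate 7) or 3255 (without WT replicate 9) regions, spanned 465.0 to 2232 kb, had a median GC of 40.7% to 42.2%, was intergenic in 66.9% to 71.7% and had 22 to 174 regions at promoters. Start sites ± 1 kb left 2 regions at promoters, and ± 10 kb left 79 genes near a region. Fewer libraries make the rule easier to meet by its construction, and for the other changes the cause was not tested. No paired analysis was possible because the genotypes share no replicate numbers and no test was run. The lists give no depth, so a missing peak in Kdm6b-cKO shows no call and not an absence of the mark.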
